A study of Rattus norvegicus with 17 samples.

Results

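Bile duct epithelial identity markers are genes by which cholangiocytes, the cells that line the bile ducts, are told apart from hepatocytes. The set held 8 genes chosen by symbol: the keratins Krt7 and Krt19, the surface proteins Epcam, Cd24, Prom1 and Muc1, the secreted protein Spp1 (osteopontin), and the transcription factor Sox9. Of 31042 probe sets on the array, 7 were annotated to exactly 1 of these symbols, 1 each for 7 of the 8 genes. Sox9 had no probe set in the annotation used and is named without a value. RNA came from whole liver of 17 rats, hybridized to 1 Affymetrix Rat Genome 230 2.0 array per rat. In 5 rats the bile duct was ligated and ghrelin, a peptide hormone of the stomach, was given at 10 µg per kg per day by a subcutaneous osmotic minipump (ligated ghrelin). In 6 rats the duct was ligated and the pump delivered saline (ligated saline). The other 6 rats had an abdominal incision without ligation and a saline pump (sham). Surgery took place at week 7 and livers were collected at week 9, so each ligated liver had 2 weeks of obstruction. The 17 arrays held no group without ligation that received ghrelin.

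In a normal liver, cholangiocytes are a small minority of cells, and they carry simple-epithelial keratins that mature hepatocytes lack. Obstruction of the common bile duct is a standard model of cholestasis in which small ducts multiply, a change known as the ductular reaction. Several of these genes also mark other cells: Spp1 is also made by macrophages, Cd24 by neutrophils and B cells, Muc1 and the keratins by mesothelium, and Epcam, Prom1 and Sox9 by bipotent progenitor cells. In whole liver, more cholangiocytes and more RNA of these genes per cell cannot be told apart. The tissue label was checked on 13 hepatocyte genes, such as Alb and Ttr, and each of the 13 was above the detection level defined next on at least 1 array of every group.

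Values are log2 of the deposited intensity. A probe set entered the tests when its value lay above the median of all deposited values (a log2 value of 3.95) in 5 or more livers, which kept 15965 probe sets standing for 9736 genes. All 7 measured markers were kept. In sham livers, Epcam was above that level on 6 of 6 arrays, Spp1 on 5, Krt19 on 4, Cd24 on 3, and Krt7, Prom1 and Muc1 on 1 each, so for Krt7, Krt19, Cd24, Prom1 and Muc1 the ligated arrays decided the filter. The 7 markers were also called in both ligated groups against sham when no filter was applied. Changes come from limma with Benjamini-Hochberg adjustment over the 15965 probe sets, and "rose" or "called" means an adjusted p under 0.05. The median intensity of the arrays was 15.4 to 17.5 in ligated livers and 14.2 to 14.7 in sham livers. Intensities of different probe sets are not on a common scale, so only changes, not levels, are compared between genes. The summed intensity of a gene list is compared only between groups. Its brightest probe sets weigh most in it, so it does not measure the amount of a cell type.

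RefSeq promoters (rat assembly GRCr8, 250 bases before to 50 bases after the annotated start) were at hand for 5 of the 8 genes, with 2 starts for Prom1. They are shown because the markers moved together across the groups, and they were searched on both strands for the TATA box as TATAAA, the HNF1 motif as GTTAAT, the SOX motif as ACAATG, and the TEAD motif as GGAATG. Capitals mark the matches, and a match describes letters and not a bound site. Cd24 and Epcam, with no match to these exact letters, stand beside Muc1 and Spp1, the 2 genes with one. Close variants, such as the letters tatataag in the Cd24 window, were not searched for, so no match does not mean no TATA box.
Cd24, chr20:48656227-48656526, plus strand: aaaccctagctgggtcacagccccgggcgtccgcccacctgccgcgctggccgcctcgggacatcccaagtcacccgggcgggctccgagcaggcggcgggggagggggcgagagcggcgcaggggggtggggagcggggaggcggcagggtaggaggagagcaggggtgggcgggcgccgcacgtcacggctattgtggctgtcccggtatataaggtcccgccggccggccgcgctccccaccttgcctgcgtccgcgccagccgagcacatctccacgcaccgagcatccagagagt
Epcam, chr6:12649629-12649928, minus strand: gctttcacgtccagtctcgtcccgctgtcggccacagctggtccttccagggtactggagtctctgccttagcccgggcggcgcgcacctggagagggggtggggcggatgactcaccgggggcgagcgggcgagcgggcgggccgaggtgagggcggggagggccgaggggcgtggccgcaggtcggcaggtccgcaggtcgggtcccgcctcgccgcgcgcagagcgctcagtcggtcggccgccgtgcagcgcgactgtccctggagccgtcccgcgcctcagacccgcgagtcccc
Muc1, chr2:176933500-176933799, plus strand: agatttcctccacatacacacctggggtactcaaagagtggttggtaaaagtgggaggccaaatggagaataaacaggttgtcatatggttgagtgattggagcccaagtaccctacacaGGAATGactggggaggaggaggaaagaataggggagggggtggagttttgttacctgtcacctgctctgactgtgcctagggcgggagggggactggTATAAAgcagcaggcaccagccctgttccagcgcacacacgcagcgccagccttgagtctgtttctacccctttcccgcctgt
Spp1, chr14:5619755-5620054, minus strand: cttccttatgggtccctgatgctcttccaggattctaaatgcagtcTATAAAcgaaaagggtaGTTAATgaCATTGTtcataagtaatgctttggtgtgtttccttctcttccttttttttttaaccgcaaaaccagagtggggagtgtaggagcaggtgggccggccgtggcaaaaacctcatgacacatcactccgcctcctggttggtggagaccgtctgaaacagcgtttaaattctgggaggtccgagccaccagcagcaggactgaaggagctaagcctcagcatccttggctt
Muc1 carried TATAAA from position -33 relative to the start and GGAATG from position -130. Spp1 carried TATAAA from position -204, GTTAAT from position -187 and the SOX letters on the opposite strand, printed as CATTGT, from position -179. These letters were not rare in the 33469 promoters of the table, of which 14.2% held TATAAA, 7.45% GTTAAT, 13.2% ACAATG and 14.2% GGAATG. The windows of Cd24 (74% G and C) and Epcam (75.67%) were richer in G and C than 96% and 97.2% of promoters, while Spp1 (48.67%) and Muc1 (54%) lay on either side of the median of 51.67%. Both windows of Prom1 lacked the 4 motifs, and none of the 4 was common to the 5 genes.

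All 7 measured markers rose with ligation, and for each of them every ligated saline liver lay above every sham liver. The changes ran from 5.16-fold for Muc1 to 129-fold for Cd24. Among 9736 genes ordered by their increase, Cd24 was number 3, Spp1 21, Krt19 32, Prom1 35, Epcam 111, Krt7 234 and Muc1 484. These places depend on dim sham values, since the sham means of Krt7, Prom1 and Muc1 (3.62, 3.56 and 3.94) lay below the detection level, and on log2(value + 16) Epcam (3.82) came before Prom1 (3.68). The background was high in this comparison, with 34.2% of probe sets called higher and 22.8% higher without overlap, and the sizes are therefore given against all probe sets as well. Of these, 5.56% were called higher by at least 2 log2 units, 0.777% by at least 4 and 0.288% by at least 5. The median change of the 7 markers was 4.87, against 0.07 over all kept genes.

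**Figure D1:**
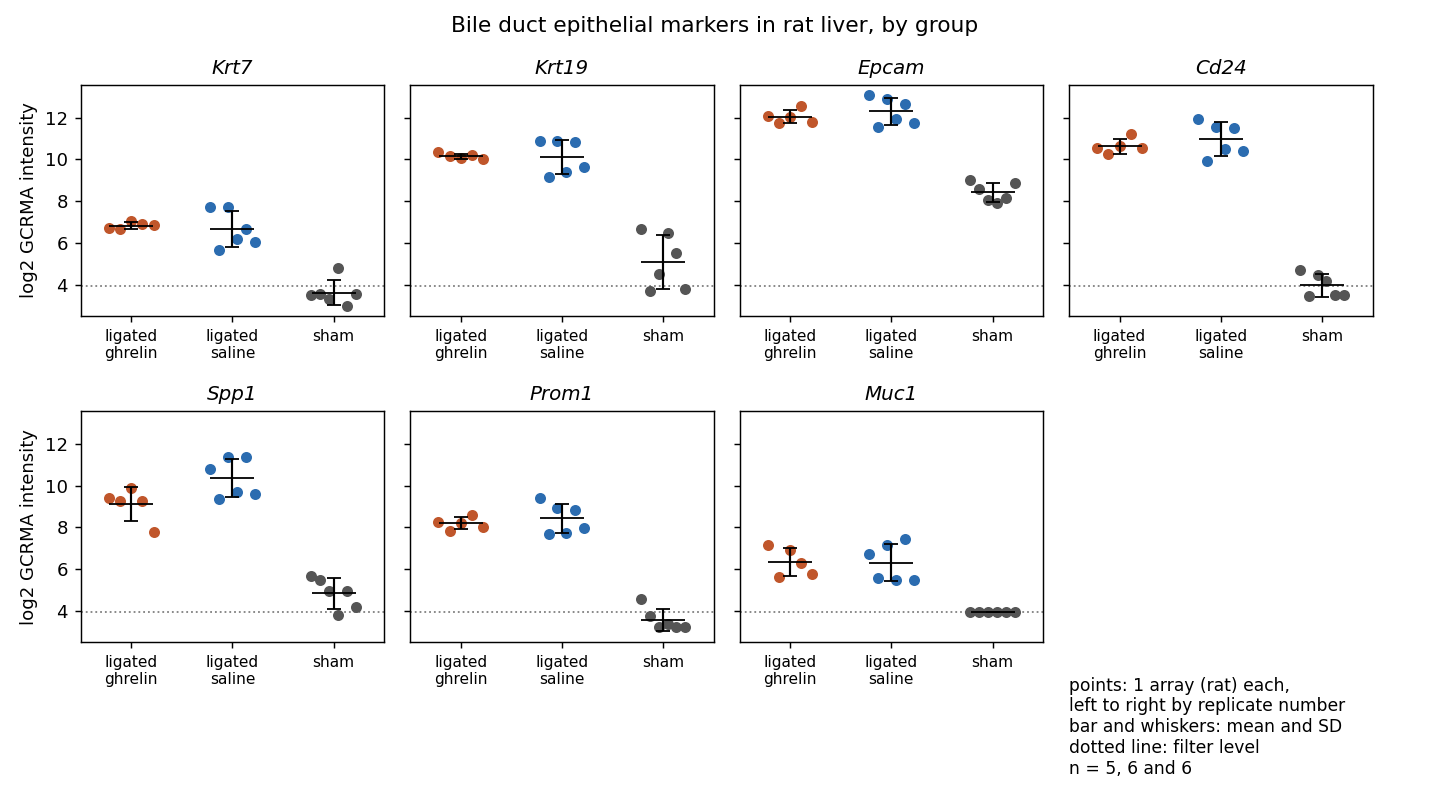
Log2 intensity of the 7 measured markers, 1 panel per gene, in ligated ghrelin (n = 5), ligated saline (n = 6) and sham livers (n = 6). Points are rats, the bar and whiskers give mean ± SD, and the dotted line is the filter level of 3.95. In each panel the ligated points lie above all sham points, and the ligated saline points spread over 1.499 to 2.06 log2 units.

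Krt19 (probe set 1388433_at) and Krt7 (probe set 1373900_at) encode the type I and type II keratins of the cholangiocyte cytoskeleton, and Krt19 is the usual histological stain for ducts. Krt19 lay between 9.14 and 10.90 in ligated saline livers, with a median of 10.22, against 3.69 to 6.66 in sham livers, with a median of 5.00. Its change was 5.03 ± 0.4934 (SE), or 32.6-fold with a 95% interval of 15.8 to 67.1 (limma adjusted p = 2.5e-07), and 21.0-fold on log2(value + 16). Sham livers varied most for this gene (SD 1.30), with arrays 1 and 4 at 6.66 and 6.45 and array 2 at 3.69, and the lowest ligated liver was still 2.48 log2 units above the highest sham liver. Krt7 lay between 5.66 and 7.73 in ligated saline livers, with a median of 6.43, against 2.99 to 4.78 in sham livers, with a median of 3.52. The change of Krt7 was 3.05 ± 0.343, or 8.30-fold (adjusted p = 1.12e-06). Only sham array 4 was above the detection level for Krt7, so its fold rests on dim sham values, and on log2(value + 16) it was 4.17-fold.

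Epcam (probe set 1388199_at), an adhesion molecule of simple epithelia, was the marker best measured without ligation. It lay between 11.56 and 13.06 in ligated saline livers, with a median of 12.29, against 7.90 to 9.00 in sham livers, with a median of 8.37. The change was 3.89 ± 0.269, or 14.8-fold with an interval of 9.97 to 21.96 (limma adjusted p = 6e-09), and it stood at 14.2-fold on log2(value + 16). Cd24 (probe set 1369953_a_at), a small sialoglycoprotein anchored in the membrane by a lipid, showed the widest separation of the 7. It lay between 9.93 and 11.96 in ligated saline livers, with a median of 11.01, against 3.46 to 4.71 in sham livers, with a median of 3.83. The change of 7.01 ± 0.329 amounts to 129-fold with an interval of 79.8 to 209, and to 63.3-fold on log2(value + 16) (adjusted p of the main fit 1.08e-10).

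Prom1 (probe set 1368008_at) encodes prominin, or CD133, a pentaspan protein of membrane protrusions. It lay between 7.67 and 9.38 in ligated saline livers, with a median of 8.41, against 3.22 to 4.56 in sham livers, with a median of 3.29, and only sham array 1 was above the detection level. Its change was 4.87 ± 0.298, or 29.2-fold (limma adjusted p = 1.66e-09), and 12.8-fold on log2(value + 16). Muc1 (probe set 1398318_at), a transmembrane mucin of the apical surface, changed least. It lay between 5.49 and 7.42 in ligated saline livers, with a median of 6.14, against 3.93 to 3.96 in sham livers, with a median of 3.93. The sham values of Muc1 sat beside the filter level with an SD of 0.0112, which is far below the median SD of 0.196 over all kept genes in sham livers. The change of 2.37 ± 0.345 (5.16-fold, adjusted p = 1.77e-05) was 3.10-fold on log2(value + 16).

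Spp1 (probe set 1367581_a_at) encodes osteopontin, a secreted phosphoprotein that binds integrins and CD44. It lay between 9.37 and 11.37 in ligated saline livers, with a median of 10.24, against 3.78 to 5.67 in sham livers, with a median of 4.95. The change was 5.52 ± 0.440, or 46.0-fold with an interval of 24.2 to 87.8 (limma adjusted p = 2.76e-08), and 29.2-fold on log2(value + 16). All 6 ligated saline livers were at least 3.71 log2 units above the highest sham liver. Macrophage genes rose in the same comparison, with 8 of 9 kept genes called higher, against 37.5% of all kept genes. Among them were Lgals3 (2.64 ± 0.142), Gpnmb (2.63 ± 0.350) and Cd163 (0.89 ± 0.143), and 1, Cd14, was lower (-0.52 ± 0.177). The macrophage gene Trem2 was below the detection level on all arrays, and the list's summed intensity was 17238 to 24492 in ligated saline livers against 7353 to 11960 in sham livers. Their part in the change of Spp1 was not tested.

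Livers with ligation and ghrelin were also compared with the same 6 sham livers, so the comparison holds ligation and ghrelin together and shares its sham values with the one above. Krt7 was 6.71, 6.65, 7.04, 6.91 and 6.83 in the 5 ligated ghrelin livers, a change of 3.21 ± 0.360 over sham. Krt19 was 10.34, 10.14, 10.05, 10.21 and 10.04, a change of 5.06 ± 0.517. The keratins were thus held within 0.39 and 0.30 log2 units among the 5 livers. Epcam was 12.09, 11.76, 12.05, 12.54 and 11.79, a change of 3.62 ± 0.282. Cd24 was 10.54, 10.23, 10.64, 11.20 and 10.53, a change of 6.67 ± 0.345. Both had their highest value in ghrelin array 4 and their lowest in array 2. Prom1 was 8.27, 7.85, 8.19, 8.60 and 8.01, a change of 4.63 ± 0.313. Muc1 was 7.16, 5.64, 6.92, 6.28 and 5.78, a change of 2.42 ± 0.362, with arrays 1 and 3 above the other 3. Spp1 was 9.40, 9.24, 9.90, 9.26 and 7.77, a change of 4.28 ± 0.462, and array 5 was the low one. The 7 markers were called higher than sham without overlap, where 29.9% of probe sets were called higher and 20.7% were higher without overlap (limma adjusted p between 4.51e-10 for Cd24 and 3.52e-05 for Muc1). The fold changes ran from 5.35 for Muc1, through 19.4 for Spp1 and 24.7 for Prom1, to 101 for Cd24. On log2(value + 16) they were 3.16 for Muc1, 12.5 for Spp1, 10.9 for Prom1 and 49.8 for Cd24.

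Ghrelin against saline in ligated livers tested whether the hormone altered the markers once the duct was obstructed. None of the 7 markers was called by limma, and for each of them the ligated ghrelin and ligated saline livers overlapped; 2.22% of probe sets were called and 4.41% did not overlap. At an unadjusted p under 0.05 there was 1 of the 7, Spp1, where 21.3% of all probe sets passed that limit. Krt7 averaged 6.83 ± 0.157 in ligated ghrelin livers (SD, n = 5) and 6.67 ± 0.872 in ligated saline livers (SD, n = 6). Krt19 averaged 10.16 ± 0.123 in ligated ghrelin livers and 10.12 ± 0.828 in ligated saline livers. The difference was 0.16 with a 95% interval of -0.60 to 0.92 for Krt7 (adjusted p = 0.836) and 0.03 with an interval of -1.06 to 1.13 for Krt19 (adjusted p = 0.976). For Krt19 that interval reaches from 0.480-fold to 2.19-fold. Epcam differed by -0.26 (-0.86 to 0.33), Cd24 by -0.35 (-1.08 to 0.38), Prom1 by -0.24 (-0.90 to 0.42) and Muc1 by 0.05 (-0.71 to 0.82), with limma adjusted p values of 0.624, 0.592, 0.700 and 0.948. The median difference of the 7 markers was -0.24, against 0.01 over all kept genes.

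**Figure D2:**
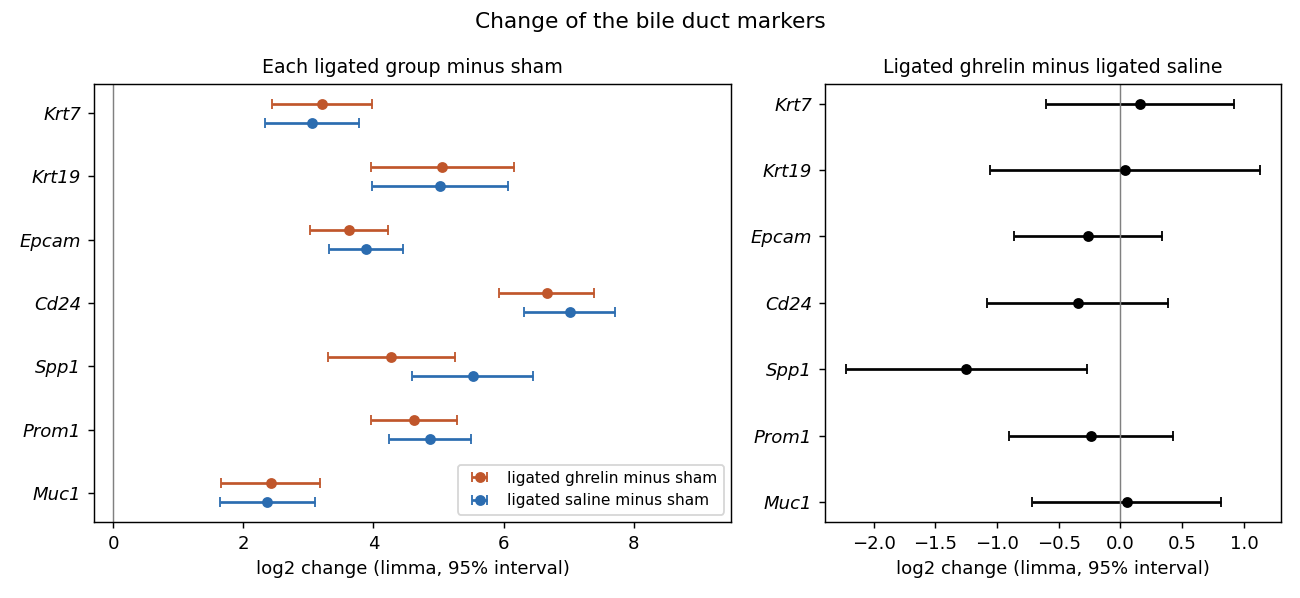
Log2 changes of the 7 measured markers with 95% intervals from limma, on the left for ligated ghrelin minus sham and ligated saline minus sham, on the right for ligated ghrelin minus ligated saline. All intervals on the left lie above 0, from 1.64 upwards, and on the right only that of Spp1 (-2.23 to -0.27) leaves out 0, while its adjusted p was 0.136.

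Spp1 was the marker with the largest difference between the ligated groups, at 9.11 ± 0.799 in ligated ghrelin livers (SD, n = 5) and 10.36 ± 0.926 in ligated saline livers (SD, n = 6). The difference was -1.25 ± 0.462, or 0.421-fold with an interval of 0.214 to 0.827 (limma adjusted p = 0.136). All 5 ghrelin livers lay below the saline mean, and 3 of them, at 9.24, 9.26 and 7.77, lay below the lowest saline liver at 9.37. That mean fell in a gap between 2 sets of saline livers, described in the next paragraph. Saline arrays 1, 3 and 5 were at 10.81, 11.37 and 11.37, and arrays 2, 4 and 6 at 9.37, 9.67 and 9.58. Ghrelin arrays 1 to 4, at 9.24 to 9.90, stood near the lower set. Over the 26 alternative fits the difference ran from -1.45 to -0.91 and its adjusted p from 0.0946 to 0.285, with -0.91 when ghrelin array 5 was left out. Among 9736 genes Spp1 was number 29 from the lowest difference. Set against the other 6 markers of the same liver, as the change of Spp1 over its sham mean minus the mean change of the others, ghrelin livers were at 0.14, 0.46, 0.68, -0.11 and -1.14. On the same scale saline livers were at 0.78, 1.05, 1.45, 1.06, 1.64 and 0.96, so the ligated groups did not overlap, while the Spp1 values themselves did. Sham livers were at 0.20, 0.93, 0.28, -1.39, 0.33 and -0.34 and overlapped both ligated groups. The contrast of Spp1 with the other markers was chosen after its values were seen and has no test. The share of all genes that would separate the groups on such a scale was not computed, so no conclusion is drawn from it. Of the macrophage genes 0 of 9 were called between the ligated groups (limma; 0 at an unadjusted p under 0.05), with a median difference of -0.25 and a summed intensity of 13917 to 19514 in ligated ghrelin livers against 17238 to 24492 in ligated saline livers. Macrophage levels were not tested as a covariate of Spp1.

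The 6 ligated saline livers did not form 1 cloud. Arrays 1, 3 and 5 were the 3 highest for each of the 7 markers, and the gap between the lowest of them and the highest of arrays 2, 4 and 6 was 0.50 log2 units for Krt7, 0.72 for Epcam, 0.88 for Prom1, 0.99 for Cd24, 1.13 for Spp1, 1.16 for Muc1 and 1.198 for Krt19. Over the 7 markers the mean increase above sham was 5.30, 3.64, 5.29, 3.93, 5.12 and 3.92 in saline arrays 1 to 6. It was 4.44, 4.01, 4.48, 4.51 and 3.90 in ghrelin arrays 1 to 5, below each of saline arrays 1, 3 and 5. Of 9736 kept genes 13.8% had arrays 1, 3 and 5 on top, and 1.80% had them there with a gap of at least 0.496. That limit was the smallest gap of the 7 markers, the one of Krt7. The markers therefore meet it by construction, and the 1.80% is not an independent background for them. The labels name no batch or date that goes with these arrays, and the sets were seen in the data, so no test was run on them.

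**Figure D3:**
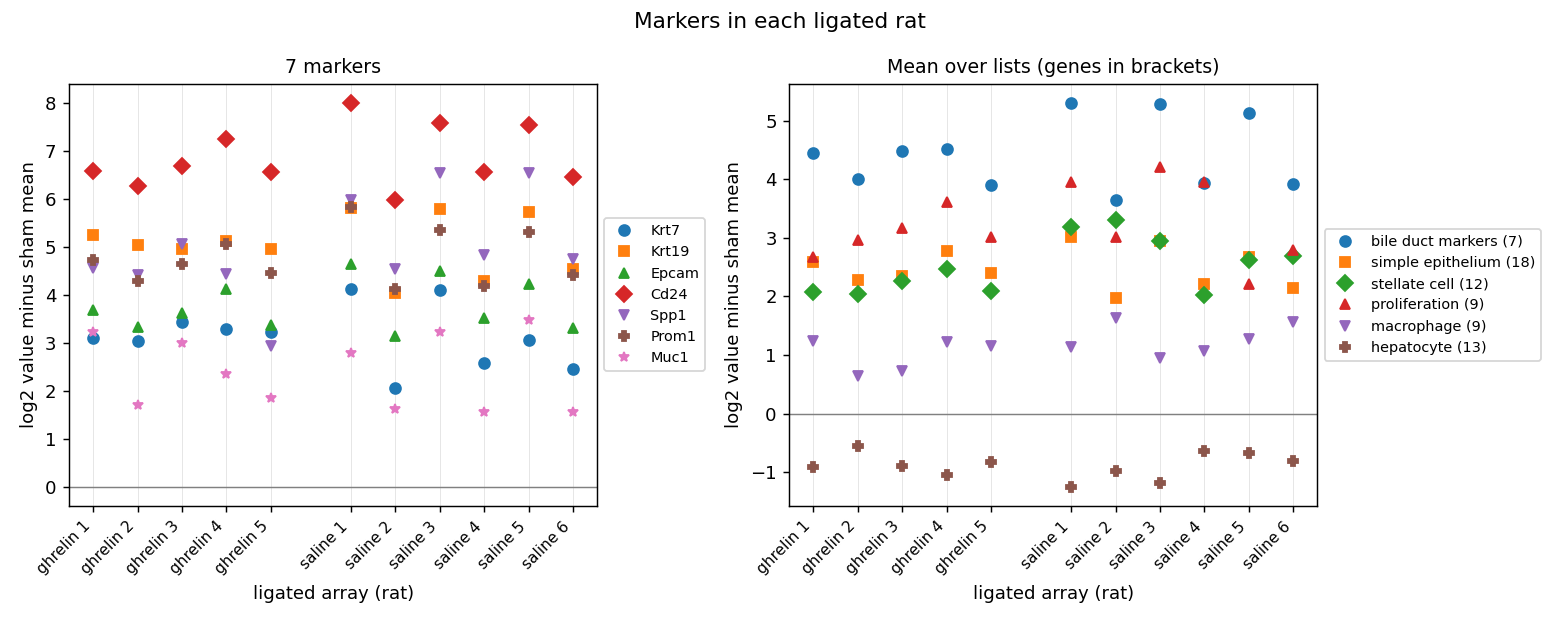
Left, the increase of each of the 7 markers above its sham mean in the 11 ligated livers; right, the mean increase of 6 gene lists in the same livers, both in log2 units. The duct markers of saline arrays 1, 3 and 5 (means 5.12 to 5.30) lie above those of the other 8 ligated livers (3.64 to 4.51), while the hepatocyte, macrophage, stellate cell and proliferation lists follow other orders.

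Other gene groups were read on the same saline arrays. Of 18 kept genes of simple epithelium, 12 had arrays 1, 3 and 5 on top, and their mean increase was 3.01, 1.97, 2.94, 2.22, 2.67 and 2.15 in arrays 1 to 6. The same order held for 5 of 9 secretion and transport genes, 5 of 13 biliary factors and 3 of 5 cilium genes, but for 0 of 13 hepatocyte, 0 of 9 macrophage, 0 of 9 proliferation and 2 of 12 stellate cell genes. It also held for 4 of 6 genes of the progenitor and fetal liver list, which shares markers with ducts, for 1 of 3 mesothelial genes, and for 0 of 7 endothelial and 0 of 3 neutrophil and B cell genes. Over all kept genes the share was 13.8%, and the stellate share of 16.7% was near it. With the gap limit above, the order held for 5 of 18 epithelium, 2 of 9 secretion and 3 of 13 factor genes. It then held for 1 of 5 cilium and 2 of 6 progenitor genes, and for 1.80% of all kept genes. Stellate cell genes stood at 3.18, 3.31, 2.94, 2.03, 2.61 and 2.69, with array 2 highest. Proliferation genes stood at 3.95, 3.02, 4.21, 3.95, 2.21 and 2.79, with array 5 lowest. Hepatocyte genes stood at -1.25, -0.97, -1.19, -0.64, -0.66 and -0.81. The array medians were 17.5, 16.2, 16.7, 16.3, 16.4 and 16.1 in intensity, and the beta-actin difference between 3′ and 5′ probe sets, a sign of RNA integrity, was 1.89, 2.05, 2.03, 1.98, 1.93 and 1.75, so arrays 1, 3 and 5 also had the 3 highest medians, while the beta-actin difference did not part the 2 sets. The part of the array medians in this order was not tested. The spread of the markers in ligated saline livers (SD 0.644 to 0.926) was above the median SD of 0.198 over all kept genes, whose 95th percentile was 0.716. In ligated ghrelin livers the SD was 0.123 to 0.799 for the markers and 0.191 at the median of all genes. The highest beta-actin difference of all arrays, 2.62, was that of ghrelin array 3. The same array had the highest Krt7 and Spp1 values among ghrelin livers.

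In sham livers the markers did not share 1 order. Array 1 was highest for Krt19, Epcam, Cd24, Spp1 and Prom1, at 6.66, 9.00, 4.71, 5.67 and 4.56. Array 4 was highest for Krt7 at 4.78 and near the top for Krt19 at 6.45, but lowest for Epcam at 7.90 and for Spp1 at 3.78. The mean of the 7 markers over their sham means was 0.66 in array 1 and between -0.34 and 0.14 in the other 5.

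Genes for bile secretion and transport rose with the markers. Of 12 listed, 9 were kept, and in ligated saline livers against sham 7 were higher, 0 lower and 2 not called (median change of the list 1.93). Over all kept genes 37.5% were called higher and 27.2% lower. Sctr, the secretin receptor that starts ductal bicarbonate secretion, rose by 6.49 ± 0.292 and Cftr, the apical chloride channel, by 5.69 ± 0.244. Both were below the detection level in all 6 sham livers, so the folds are given as at least 40.3 and at least 22.3. Abcc3, a basolateral export pump of organic anions that hepatocytes also make, rose by 4.54 ± 0.186. The 2 not called, Slc10a2 (the bile acid importer ASBT, 1.08 ± 0.770) and Slc4a2 (the anion exchanger AE2, 0.01 ± 0.156), are named because they are few and after their values were seen.

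Simple epithelium and surface genes followed: 17 of 18 were higher, 0 lower and 1 was not called, with a median change of 2.37. Among them Krt20, Krt23, Cldn4, Cldn7, Elf3, Ehf and Spint1 were below the detection level in all sham livers. So were Sctr, Cftr, Klf5 and Tead2 of the other lists. For such genes the ligated arrays decided the filter, so the counts of higher genes against sham are partly fixed by it. Krt8 and Krt18, the keratin pair that hepatocytes share, rose by 2.33 ± 0.106 and 1.62 ± 0.0808, against changes of 5.03 for Krt19 and 3.05 for Krt7. St14, the membrane protease matriptase, rose by 4.45 ± 0.249. The gene not called was Cldn3, a tight junction claudin, at -0.01 ± 0.203. Of 13 kept biliary differentiation factors 7 were higher, 3 lower and 3 not called, with a median change of 0.87. Sox4, a partner of Sox9 in mouse duct formation, rose by 3.80 ± 0.220. Klf5 rose by 4.08 ± 0.344, at least 8.99-fold since all sham livers were below the detection level. Ccn2, the connective tissue growth factor known as a YAP target, rose by 3.81 ± 0.418.

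The 3 lower factors were Onecut1 (-0.74 ± 0.282, limma adjusted p = 0.0323), Onecut2 (-0.55 ± 0.134) and Foxa1 (-0.60 ± 0.206), liver transcription factors that hepatocytes express too. The call of Onecut1 was lost in several fits without 1 liver, with an adjusted p of up to 0.0802. All 5 kept cilium genes were higher, with a median change of 1.19. The lowest p values were those of Pkd2 (polycystin-2, 3.12 ± 0.270), Tmem67 (1.24 ± 0.123) and Bbs4 (0.56 ± 0.140), and Kif3a, a motor of ciliary transport, was at 1.19 ± 0.307. Ift88 (0.34 ± 0.103) lost its call with array medians set equal and was at -0.0034 after quantile normalization. Against sham, ligated ghrelin livers had 7 of 9 secretion, 17 of 18 epithelium, 8 of 13 factor and 4 of 5 cilium genes higher, with 1 factor lower, where 35% of all kept genes were called higher and 21.2% lower. Between ligated ghrelin and ligated saline livers 0 genes of the 4 lists were called by limma, and 1, 0, 3 and 0 had an unadjusted p under 0.05. Over all genes 2.34% were called in that comparison and 22% had such a p.

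**Figure D4:**
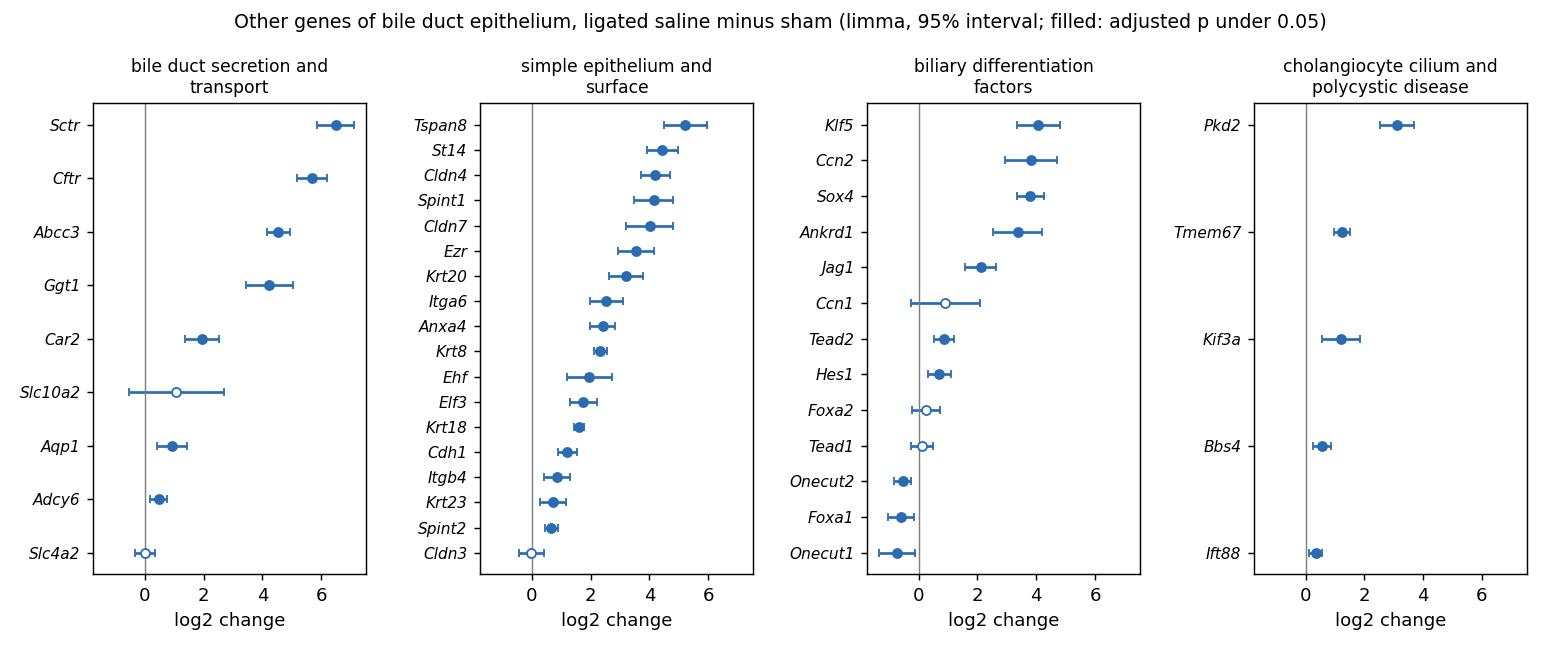
Log2 change of each kept gene of 4 lists (bile duct secretion and transport, simple epithelium and surface, biliary differentiation factors, cholangiocyte cilium) in ligated saline (n = 6) minus sham livers (n = 6), with 95% intervals. Filled points were called by limma and open points were not; Sctr, at 6.49, is the highest point and Onecut1, at -0.74, the lowest.

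Genes of other liver cells moved in the same livers. Stellate cell and myofibroblast genes were higher in 11 of 12 cases, with a median change of 2.87 and a summed intensity of 20566 to 41950 in ligated saline livers against 3950 to 5495 in sham livers. Their lowest p values belonged to the pericyte gene Rgs5 (3.09 ± 0.151), the intermediate filament Vim (3.54 ± 0.197) and the collagen Col3a1 (2.496 ± 0.138). Lrat, the retinol acyltransferase of quiescent stellate cells, was lower (-0.62 ± 0.178). Proliferation genes were higher in 9 of 9, with a median change of 3.85, among them Mki67 (4.54 ± 0.304), Cdk1 (3.93 ± 0.347) and Top2a (3.90 ± 0.345). Endothelial genes were higher in 2 (Vwf and Stab2), lower in 1 (Kdr) and not called in 4 of 7. Of all kept genes 37.5% were called higher and 27.2% lower in this comparison. Hepatocyte genes were lower in 6 of 13 and higher in 0, led by Cyp2c11, a steroid hydroxylase of male rat liver (-7.77 ± 0.845), with Hnf4a at -0.79 ± 0.097 and Fabp1 at -1.27 ± 0.164, with a summed intensity of 224682 to 270726 in ligated saline livers against 301007 to 331412 in sham livers.

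For the cell types that share markers with ducts, the neutrophil and B cell list had 3 of 3 kept genes higher (S100a8 by 3.51 ± 0.290, S100a9 by 3.27 ± 0.333, and Csf3r, below the detection level in all 6 sham livers, at least 2.37-fold), summed at 1715 to 6559 in ligated saline livers against 227 to 590 in sham livers. Its B cell genes Cd79b and Ms4a1 and the neutrophil receptor Cxcr2 were below the detection level on all 17 arrays. Here too, 37.5% of all kept genes were called higher and 27.2% lower. Of 3 kept mesothelial genes only Msln (mesothelin) was called, at 6.93 ± 0.402, against 2.11 ± 1.05 for Gpm6a and -0.06 ± 0.401 for Lrrn4. Upk1b, Wt1 and Bnc1 were not kept, and Bnc1 stayed below the level in every group. Upk1b was below it on all ligated arrays but not on all sham arrays. Wt1 was below it on all sham and ligated ghrelin arrays but not on all ligated saline arrays. The list summed to 1336 to 2730 in ligated saline livers against 115 to 1004 in sham livers. Of 6 kept progenitor and fetal genes 5 were higher, among them Cd44, a receptor of osteopontin (5.77 ± 0.266), and Tnfrsf12a (4.68 ± 0.325), and 1, Afp, was lower (-1.30 ± 0.170). The genes Dlk1, Lgr5 and Igf2 were below the level on all arrays. The part of these cells in the changes of Cd24, Muc1, the keratins, Epcam and Prom1 was not tested.

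Between the ligated groups, 2 of 12 stellate cell genes were called lower with ghrelin, Col3a1 (-0.68 ± 0.145, limma adjusted p = 0.0342) and Rgs5 (-0.70 ± 0.158, adjusted p = 0.0389), with a median of -0.63 for the list. Over all kept genes 0.585% were called lower with ghrelin. Both calls were lost in fits that left out single livers, with adjusted p values of up to 0.0979 for Col3a1 and 0.110 for Rgs5, the highest without ghrelin array 2. They were also lost without a filter, with only the 2 groups compared, and with beta-actin as a covariate. The limma adjusted p values were then 0.0518, 0.0661 and 0.0543 for Col3a1, and 0.0602, 0.0641 and 0.0911 for Rgs5. The stellate sums were 17406 to 23439 in ligated ghrelin livers and 20566 to 41950 in ligated saline livers. The 12 stellate changes ran from -0.87 to -0.37, and 6 of 12 had an unadjusted p under 0.05, against 22% of all kept genes. In the hepatocyte, proliferation, endothelial, progenitor, mesothelial, and neutrophil and B cell lists 0 genes were called between these groups. At an unadjusted p under 0.05 there were 2 of 13, 0 of 9, 1 of 7, 3 of 6, 0 of 3 and 0 of 3.

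Across the 11 ligated livers, with group means removed, the genes whose profile came nearest to the mean of the 7 markers were Fgfr3 (Pearson r = 0.971), Tshz2 (0.969), Itgb6 (0.965), Lad1 (0.964), Dcdc2 (0.962) and Ctbp2 (0.962), out of 2412 genes with an SD of at least 0.3. Over all 17 livers, where the step between sham and ligated livers dominates, Itgb6 (0.996), Dcdc2 (0.995) and Serpinh1 (0.995) led among 9729 genes, followed by Kifc3, Efhd1 and Sfxn3. Itgb6 and Dcdc2 stood in both. These correlations describe arrays that share their processing and, in the ligated saline group, the 2 sets described above, and they carry no p value.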

How the data were processed

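Liver RNA of 17 rats (5 ligated ghrelin, 6 ligated saline, 6 sham) was measured on 1 array each, and groups were taken from the labels. Array numbers only name the rats, in the order of deposit. The deposited intensity values, 1 per probe set and on a linear scale, were made by the authors with GCRMA, per the submitters' processing notes. The version of GCRMA is not given in the sources used here. GCRMA corrects background with a model of probe sequence, so values near background, and folds against them, depend on that step.

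The values were converted to log2 without a pseudocount. The 57 control probe sets were left out, and a probe set was kept when above the median of all values (an intensity of 15.5) on at least 5 arrays. Probe sets with 1 gene symbol in the platform annotation (20826 of 31042) were used by name; 20758 were matched to RefSeq, and among several kept probe sets of a gene the one with the highest mean stands for it. A model of 3 group means was fitted over all 17 arrays using limma 3.58.1 (R 4.3.3; 14 residual and 2.54 prior degrees of freedom), with Benjamini-Hochberg adjustment over 15965 probe sets. For a gene below the detection level throughout 1 group, the fold is a bound against that level. The fit was checked on simulated data. No 2 arrays were identical, and the correlation between arrays of 1 group was 0.988 to 0.995. The number of arrays limits the precision.

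The members, the lists and the rule for named genes were chosen with earlier results of these data known. The text names the members, of each list the 3 genes with the lowest p against sham and those that moved against the rest, list genes called between the ligated groups, and the 6 genes with the most similar profile; further genes are named as examples of small counts or of low or absent markers, after their values were seen. A planned correlation of each member with the mean of the others was not computed, because the ligated saline arrays fell into 2 separate sets. Alternatives were 2 other scalings, 2 other filters, log2(value + 16), other variance and array weight settings, the 2 compared groups alone, beta-actin as a covariate, and each array left out in turn.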

Additional observations from a re-analysis of the deposited data

Results flagged for a closer look

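Of 21 groups of values examined (7 markers in 3 groups), 1 held a liver far from the others, and chance alone would give about 1 in 20. Krt7 in sham array 4 was 4.78 on the log2 scale, while the nearest of the other 5 sham livers was at 3.56, a gap of 0.681 of the whole range. The same liver had a Krt19 value of 6.45 and the highest beta-actin difference between 3′ and 5′ probe sets among sham livers, at 2.37. Without it, the change of Krt7 in ligated saline livers against sham was 3.29 (limma adjusted p = 4.45e-07).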

How the results depend on the processing

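Under all 26 alternatives 7 of the 7 measured markers were called in ligated saline and in ligated ghrelin livers against sham, and 0 were called between the ligated groups. With each array left out in turn the change in ligated saline livers against sham ran from 2.84 to 3.29 for Krt7, 4.74 to 5.34 for Krt19, 3.74 to 4.04 for Epcam, 6.82 to 7.22 for Cd24, 5.31 to 5.72 for Spp1, 4.67 to 5.07 for Prom1 and 2.14 to 2.53 for Muc1. The direction between ligated ghrelin and ligated saline livers turned for 3 markers: with beta-actin as a covariate Krt19 was at -0.11 and Muc1 at -0.0831, and with arrays left out Krt7 ran from -0.0445 to 0.37, Krt19 from -0.16 to 0.19 and Muc1 from -0.15 to 0.27. Of 182 such values 12 were reversed. Among list genes against sham, Slc4a2 turned to -0.10 with quantile normalization, -0.18 with array medians set equal and -0.0896 to 0.0773 with arrays left out. Cldn3 turned to 0.0594 with quantile normalization, 0.0218 with array weights, 0.0224 with beta-actin as a covariate and -0.17 to 0.12 with arrays left out. Ift88 was at -0.0034 with quantile normalization and at 0.15 (limma adjusted p = 0.195) with medians equal, and Tead1 was at -0.0675 with medians equal. Foxa2 became called without sham array 1 (0.46, limma adjusted p = 0.0247).

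Without a filter 22230 probe sets were called in ligated saline livers and 19914 in ligated ghrelin livers against sham. Between the ligated groups 355 were called, against 541 with quantile normalization, 611 with medians equal, 154 without a filter, 564 on log2(value + 16), 118 with only the 2 groups and 44 with beta-actin as a covariate. With arrays left out the count ran from 35 (without ghrelin array 2) to 653 (without saline array 4), with 97, 122, 599 and 52 without ghrelin arrays 1, 3, 4 and 5, with 51, 55, 75 and 141 without saline arrays 1, 3, 5 and 6, and with 196, 215, 198 and 221 without sham arrays 1, 2, 5 and 6. The cause was not tested.

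The share of higher calls in ligated saline livers against sham was 55.7%, but 42.0% with quantile normalization, 39.0% with medians equal and 27.1% without a filter. In ligated ghrelin livers against sham it was 56.0%, but 43.8%, 43.1% and 25.7% under the same 3 settings, and between the ligated groups it was 59.2% but 80.4% with medians equal. Quantile normalization moved the median change of all probe sets by -0.152 and equal medians by -0.189 in ligated saline livers against sham. No paired analysis was possible because the labels give no replicate numbers shared between groups. Other probe sets of a marker could not be tried, since each has 1, and the 2 alternatives planned for the correlation of the markers were not run, as that correlation was not computed. Dim sham values limit the fold changes of Krt7, Krt19, Prom1, Cd24, Muc1 and Spp1. In ligated saline livers against sham, Spp1 went from 46.0-fold to 29.2-fold on log2(value + 16).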
